A study of Homo sapiens with 4 samples.

Results

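The genes described here are 48 genes that type I interferon is known to switch on, followed in 2 human mantle cell lymphoma (MCL) lines, REC-1 and Z138. They were taken from a fixed list of symbols, chosen with earlier results of these data known. They are set against 18239 genes with a probe set of their own on the array. Of the 48, 47 had such a probe set. In 35 of these the brightest probe set reached the median of the whole table (log2 signal 4.63) on at least 1 of 4 arrays, and these are called measured below. The other 12 stayed below that minimum on every array, and STAT2 had no probe set that belongs to it alone and is not analysed here.

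The study put each line on the array once as an untreated control and once after CC-292, a covalent BTK inhibitor. BTK (Bruton tyrosine kinase) passes on signals of the B-cell receptor. The groups are REC-1 control, REC-1 with CC-292, Z138 control and Z138 with CC-292, with 1 array each and no replicate. The labels give 48 h for 3 of the 4 arrays and no time for the Z138 control. The labels disagree on the dose of CC-292, which is 1 uM in the treatment protocol and 1 mM in the array titles. Both are established cell lines, set up from exponentially growing cells, and each group is 1 array of 1 line.

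Type I interferons bind a receptor pair on the cell surface and activate Janus kinases, which phosphorylate STAT proteins. Phosphorylated STATs join IRF9 in the complex ISGF3, which binds interferon-stimulated response elements near the start of its target genes. The products degrade viral RNA, block translation, trap virus particles at membranes, sense foreign nucleic acid or feed back on the pathway. B cells express part of this set without infection, and pattern-recognition receptors and IRF factors that also act in B-cell differentiation feed into it.

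The core of that element can be written GAAANNGAAA, or TTTCNNTTTC when read from the other strand. It was searched in RefSeq promoter windows (GRCh38.p14) of 250 bases before to 50 bases after each annotated start. A gene counted once whichever of its starts held a match, and matches may overlap. Of the 48 genes 41 had a window, and 29 of these (70.7%) held a match, against 4.38% of all 27305 genes with a window and 4.03% of the measured genes with one. Among the measured interferon genes the share was 21 of 31 (67.7%), and among those not measured 8 of 10. A match describes the letters only and does not show that a factor binds there.

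The stretches below carry the matches of genes on which the results turn, written 5′ to 3′ on the strand of the gene with the matches in capitals. A further IFITM1 match, which begins 6 bases before the start and spans it, is not shown. IFIT3, ISG15, IFITM1 and TRIM14 were at least 1.5-fold higher in REC-1 with CC-292, IFI6 was lower in Z138 and IFI27 was lower in REC-1. ISG20 and PARP9 differed between the lines. The first IFIT3 stretch is chr10:89327829-89327896 and the second, at a later start of the gene, is chr10:89332423-89332499, both on the plus strand. IFI6 is shown at chr1:27672264-27672360 (minus), ISG15 at chr1:1013372-1013411 (plus), IFITM1 at chr11:313988-314021 (plus) and TRIM14 at chr9:98119227-98119260 (minus). IFI27 is shown at chr14:94110616-94110662 (plus), ISG20 at chr15:88638935-88638968 (plus) and PARP9 at chr3:122564320-122564353 (minus).
IFIT3: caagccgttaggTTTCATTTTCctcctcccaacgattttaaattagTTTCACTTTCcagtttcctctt
IFIT3, later start: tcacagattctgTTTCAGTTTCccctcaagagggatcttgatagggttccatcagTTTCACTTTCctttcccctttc
IFI6: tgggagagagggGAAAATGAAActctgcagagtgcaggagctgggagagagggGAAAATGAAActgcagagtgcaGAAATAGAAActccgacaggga
ISG15: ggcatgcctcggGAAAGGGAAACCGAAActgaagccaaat
IFITM1: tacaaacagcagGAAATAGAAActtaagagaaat
TRIM14: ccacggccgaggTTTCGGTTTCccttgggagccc
IFI27: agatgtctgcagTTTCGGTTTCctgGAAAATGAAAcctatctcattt
ISG20: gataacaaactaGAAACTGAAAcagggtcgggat
PARP9: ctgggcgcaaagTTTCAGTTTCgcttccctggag

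In ISG15 the matches overlap, and they begin 113 and 107 bases before the start. Those of IFI6 begin between 156 and 93 bases before it, and that of TRIM14 begins 26 bases before it. The match of PARP9 is made of the same bases as a match of DTX3L, its neighbour read in the other direction (chr3:122564332-122564341). Of the 7 interferon genes at least 1.5-fold higher in REC-1 with CC-292, 4 held a match, OAS1 and HERC6 had a window without one, and TRIM22 had no window in the table.

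The 4 arrays had medians of 4.63 to 4.64 and their nonspecific probes had medians of 3.06 to 3.12. Arrays of 1 line correlated at 0.987 in REC-1 and 0.991 in Z138 across all probe sets, and arrays of different lines at 0.922 to 0.926. The B-cell markers MS4A1, CD79A, CD79B, PAX5 and CD22 and the MCL genes CCND1 and SOX11 reached the minimum in both lines, with values of 6.23 or more, while CD5 stayed below it. Of 25 markers of T, NK, myeloid, plasmacytoid dendritic and erythroid cells, 8 reached the minimum, and all 7 myeloid markers lay at 3.70 or below. Of the 6 T-cell markers 4 reached the minimum, with a highest value of 6.07 for CD3G in Z138 with CC-292. Plasmacytoid dendritic cells are the strongest producers of type I interferon. Of their markers CLEC4C and IL3RA were at 3.73 or below on all arrays, whereas TCF4 reached 10.69 and LILRA4 lay at 9.68 and 10.20 in REC-1 and at 3.53 and 3.41 in Z138. With 1 array per group, a change in the share of cells expressing a gene and a change within cells cannot be told apart.

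The first comparison asked how CC-292 moved these genes in REC-1. Most measured interferon genes were higher on the CC-292 array, and the differences were modest. Of 35 genes, 28 were above 0 on the log2 scale of CC-292 minus control, where 42.1% of all 10823 measured genes were. Their median was 0.22 against -0.05 over all measured genes. At least 1.5-fold higher were 7 genes (4.32% of all genes) and at least 1.5-fold lower was 1 gene (4.73% of all genes went that way). Of these 8, IFIT3 and HERC6 reached the minimum only on the REC-1 CC-292 array and IFI27 only on the REC-1 control, so they are measured only through the array on which they were high. Only IFIT3 passed 2-fold, as did 0.841% of all genes in that direction. These are differences between single arrays and carry no p-value. Spread is given as the SD over the probe sets of a gene above the minimum. Where there is only 1, the SD pooled over all genes with several applies (0.31 for REC-1, 0.25 for Z138, 0.48 for the line difference).

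**Figure D1:**
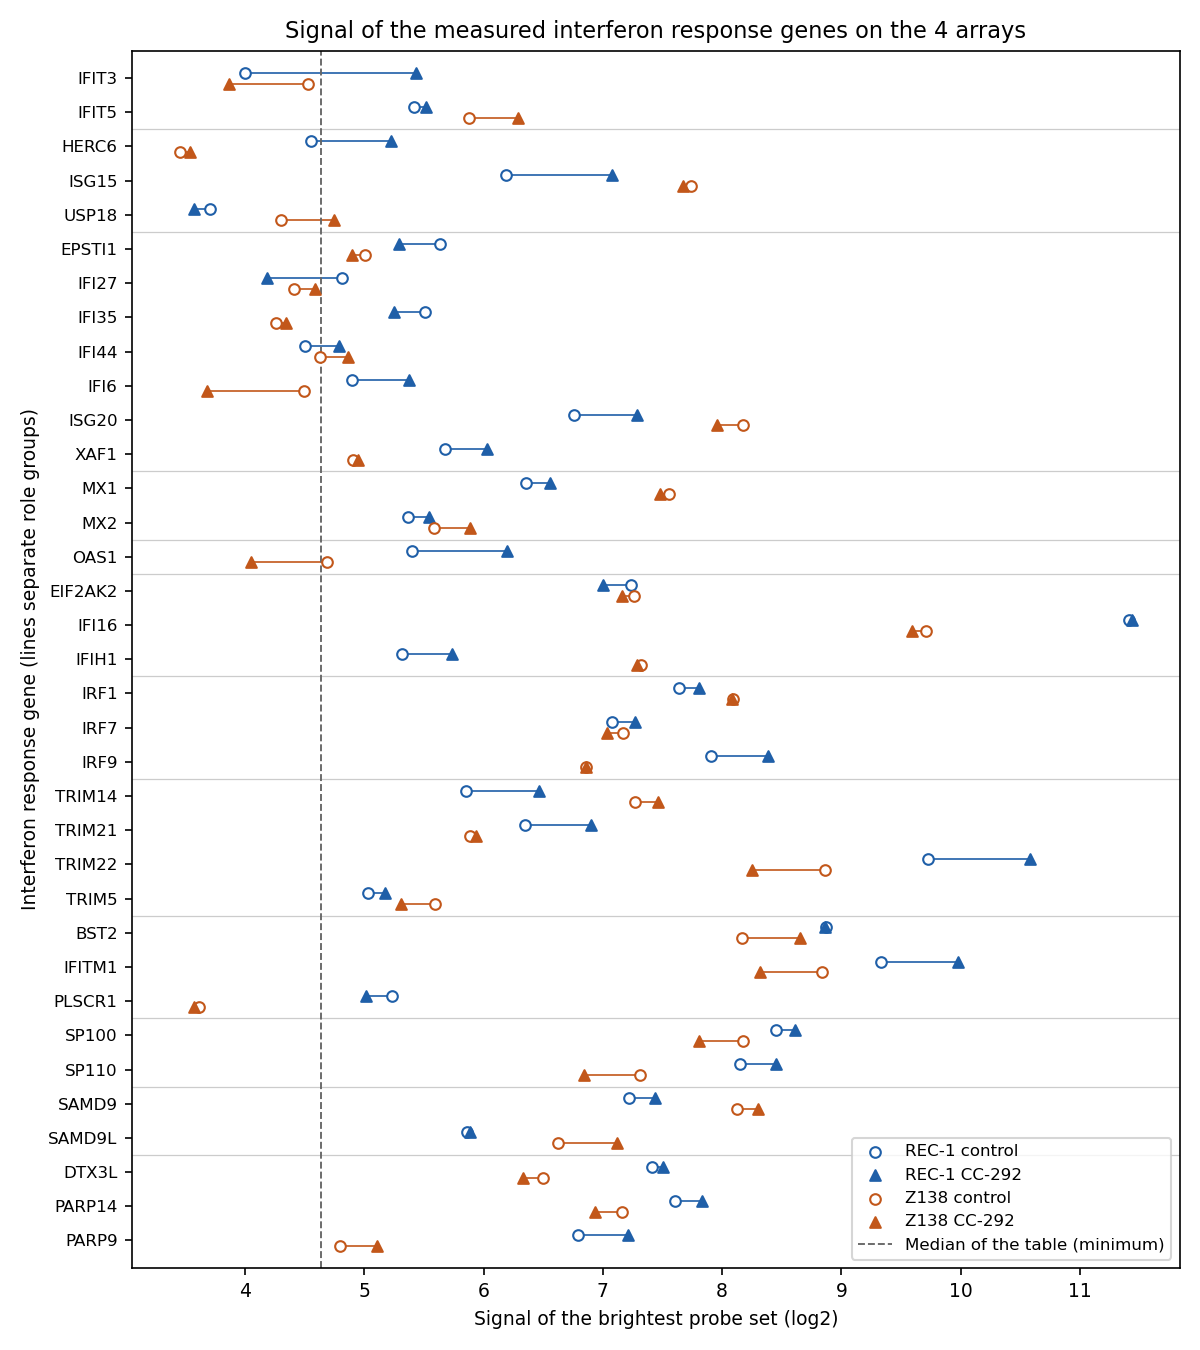
Log2 signal of the brightest probe set (x axis) for the 35 measured interferon genes (y axis, separated by role), with open circles for control and filled triangles for CC-292, REC-1 in blue and Z138 in orange. The blue triangle lies right of the blue circle for 28 genes, and the dashed line is the minimum at 4.63.

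IFIT3 encodes a partner of the IFIT complex that binds viral RNA. Its value was 4.0 on the REC-1 control, 5.44 on REC-1 with CC-292, 4.52 on the Z138 control and 3.87 on Z138 with CC-292. The REC-1 CC-292 array was the only one above the minimum, and the difference in REC-1 was 1.44 (2.71-fold) on 1 probe set. IFIT5, which binds RNA on its own, was at 5.41 and 5.52 in REC-1, a difference of 0.10 (SD 0.07 over 2 probe sets). IFIT1 and IFIT2, the other members of the family, stayed below the minimum on all arrays, and at those dim values CC-292 minus control was -0.30 and -0.96 in REC-1. The 4 family members thus had different signs in REC-1.

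ISG15, a ubiquitin-like protein that is attached to other proteins during the response, was at 6.19 on the REC-1 control and 7.08 with CC-292, a difference of 0.89 (1.86-fold) on 1 probe set. On both Z138 arrays it was brighter still, at 7.74 and 7.67. HERC6, a ligase related to the ISG15 ligase HERC5, was at 4.55 and 5.23 in REC-1 (0.67 higher) and at 3.45 and 3.54 in Z138. It thus reached the minimum on 1 array only. USP18 removes ISG15 and dampens receptor signalling. USP18 differed by -0.14 in REC-1, on values of 3.71 and 3.57 that lie under the minimum, and HERC5 stayed under it on all 4 arrays.

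TRIM22, a ubiquitin ligase that restricts retroviruses, was at 9.73 on the REC-1 control and 10.58 with CC-292. All 6 probe sets were higher, by 0.48 to 0.85 (SD 0.14). TRIM21, the cytosolic antibody receptor, went from 6.34 to 6.90 (0.55 higher on 1 probe set). TRIM5 was at 5.03 and 5.17, a difference of 0.14 that its other probe set did not share (SD 0.37). TRIM14, an adaptor of the antiviral signalling complex at mitochondria, was at 5.85 and 6.47, 0.62 higher on its brightest probe set, but its other probe set above the minimum gave -0.28 (SD 0.64). With the probe set of median difference TRIM14 was at -0.12, so its direction depended on the probe set.

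OAS1, which makes the messenger that activates RNase L, was at 5.40 and 6.20 in REC-1, 0.80 higher on its brightest probe set and 0.36 as the mean over 3 (SD 0.38). All 3 were above 0. The related OAS2, OAS3 and OASL lay below the minimum, with differences of -0.11, -0.11 and -0.09. IFITM1, a membrane protein that hinders viral fusion, was at 9.33 and 9.98, 0.65 higher with an SD of 0.24 over 2 probe sets. BST2, also called tetherin, which holds budding virus at the surface, did not follow on its brightest probe set, at 8.87 and 8.86, while its other probe sets reached 0.46 (SD 0.24 over 3).

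Of the transcription factors, IRF9, the DNA-binding subunit of ISGF3, went from 7.90 to 8.39 in REC-1, and its 4 probe sets were 0.25 to 0.90 higher (SD 0.28). IRF7, which drives interferon gene transcription, was at 7.08 and 7.27, and IRF1 was at 7.64 and 7.81 (SD 0.24 over 3 probe sets, of which 2 were above 0). All 3 were above 0, none by 1.5-fold. SP110 and SP100 belong to nuclear bodies. SP110 was 0.30 higher on its brightest probe set and 0.29 to 0.70 on all 5. SP100, a PML body component, was 0.16 higher on its brightest probe set, and the mean of its 8 probe sets was -0.14.

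The remaining measured genes lay between the IFI27 difference of -0.63 and the ISG20 difference of 0.52. ISG20, an RNA exonuclease, went from 6.76 to 7.28 on 1 probe set. IFI6, a mitochondrial survival protein, was at 4.90 and 5.37 (0.47 higher). XAF1, a pro-apoptotic partner of XIAP, was 0.35 higher, with 5 of 5 probe sets between 0.33 and 0.71. PARP9, which with DTX3L forms an ADP-ribosylating ubiquitin ligase, was 0.42 higher (SD 0.19 over 3 probe sets), DTX3L 0.09 and PARP14 0.22. The helicase gene IFIH1, which encodes the RNA sensor MDA5, was 0.42 higher. IFI44 was 0.29 higher, and MX1, MX2, SAMD9, SAMD9L and IFI16 were between 0.03 and 0.22. The lower genes beside IFI27, which went from 4.81 to 4.18, were EPSTI1 (-0.34), IFI35 (-0.26), EIF2AK2 (-0.24, encoding the kinase PKR), PLSCR1 (-0.22), USP18 (-0.14) and BST2 (-0.01).

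Across the 19 measured genes with at least 2 probe sets above the minimum, 11 had all of them on 1 side of 0 in REC-1. Of these 10 were above 0 and 1, IFI35, was below. No share over all genes stands beside this count, so it does not show whether such agreement is unusual. Of 21 genes that reached the 70th percentile of the table (log2 6.61), 19 were above 0 with a median of 0.22, and of the 14 dimmer genes 9 were above 0 with a median of 0.16. Among all measured genes 40.2% of the bright and 46.8% of the dim ones were above 0. RNA integrity was read from ACTB, whose 3′ probe set exceeded the 5′ one by 0.77 on the REC-1 control and by 0.53 with CC-292. For GAPDH the 3′ minus 5′ gap was -0.32 and -0.31 on these arrays. On the brightest probe set the B-cell markers were also higher in REC-1 with CC-292 in 5 of 5 cases (0.06 to 0.27). Of all measured genes 42.1% were above 0. As the mean over its 3 probe sets MS4A1 was at -0.02. The summed linear signal of the markers was 9145 on the control and 10019 with CC-292. The part of RNA integrity or of the markers in the result was not tested.

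**Figure D2:**
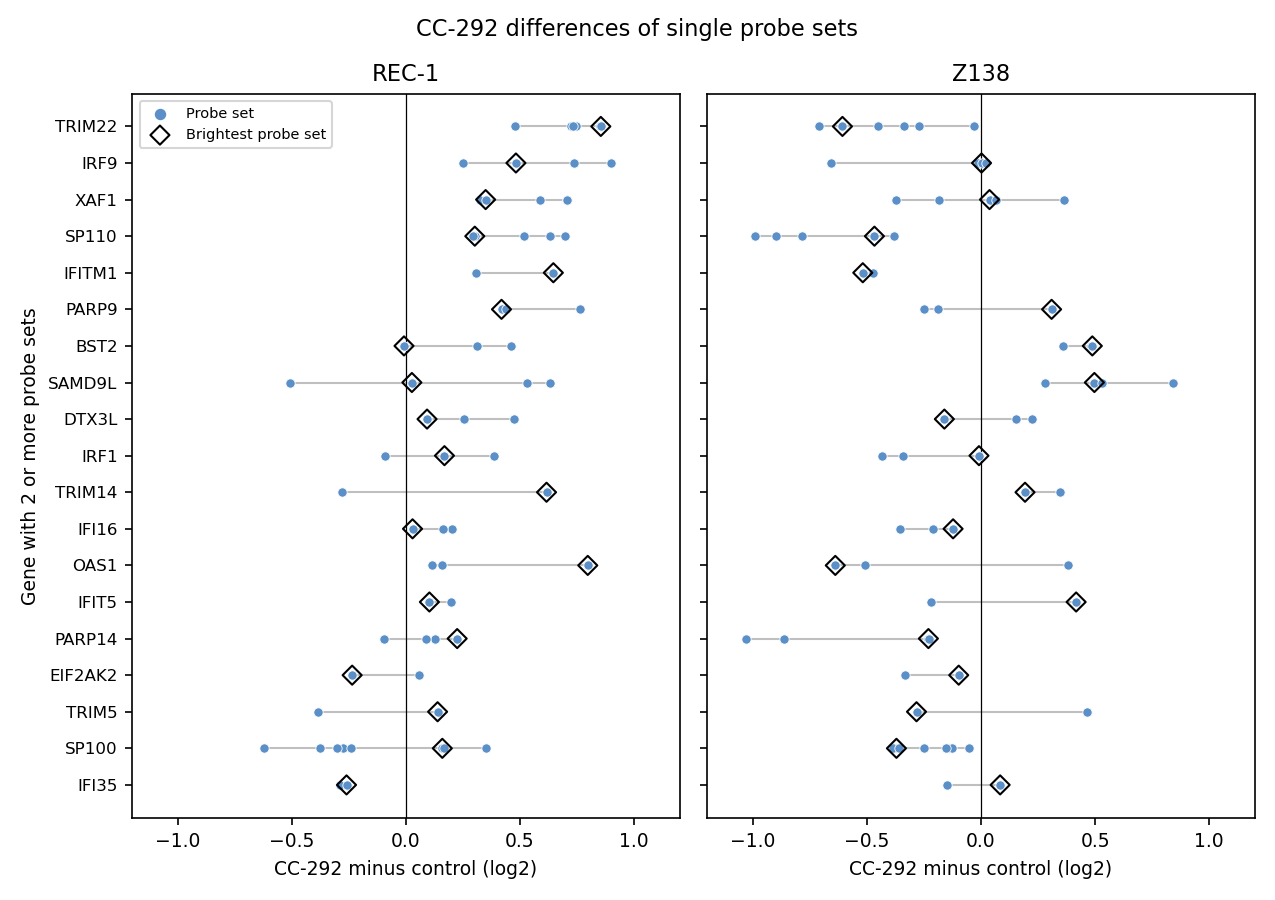
CC-292 minus control (log2, x axis) for every probe set above the minimum of the 19 genes with at least 2 of them (y axis), in REC-1 on the left and Z138 on the right; blue points are probe sets and open diamonds the brightest one. TRIM22 and SP110 lie wholly right of 0 in REC-1 and wholly left of 0 in Z138, whereas SP100 spans 0 in REC-1.

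The 12 genes below the minimum include RSAD2, CMPK2, IFIT1, IFIT2, OAS2, OAS3, OASL, IFI44L, HERC5, DDX60, LGALS3BP and GBP1. Several of them, such as RSAD2 (viperin) and IFIT1, are among the most inducible genes of the response. Their values lay between 2.98 and 4.48 over all arrays, with medians of 3.90 and 3.69 in REC-1 and 3.60 and 3.67 in Z138. In REC-1 4 of the 12 were above 0 with CC-292, with a median of -0.10, and in Z138 5 of them, with a median of -0.03. Just outside the minimum were IFIT2 and IFI44L, each with a highest value of 4.48, and just inside it were USP18 (4.75) and IFI27 (4.81).

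In Z138, by contrast, the interferon genes did not share a direction, and those that moved by 1.5-fold were lower with CC-292. Of the 35 measured genes 15 were above 0, against 51.9% of all measured genes, with a median of -0.05 against 0.01. At least 1.5-fold lower were 4 genes, IFI6, IFIT3, OAS1 and TRIM22 (2.52% of all genes), and none was 1.5-fold higher (2.18% of all genes). None reached 2-fold, as 0.213% of all genes did upwards and 0.351% downwards.

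IFI6 was at 4.50 on the Z138 control and 3.68 with CC-292, a difference of -0.82 on 1 probe set with both values under the minimum. IFIT3 differed by -0.66, again below the minimum on both arrays. OAS1 was at 4.68 and 4.05 (-0.64), where 1 of 3 probe sets was above 0 (SD 0.56). TRIM22 was the only bright gene of the 4, at 8.86 and 8.25, and its 6 probe sets lay between -0.71 and -0.03 (SD 0.24). The 4 genes thus rest on dim signals except for TRIM22.

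Short of 1.5-fold, IFITM1 was at 8.83 and 8.32 (-0.52, SD 0.03 over 2 probe sets) and SP110 at 7.31 and 6.85 (-0.47, with 5 of 5 probe sets between -0.99 and -0.38). SP100 was at -0.37, with 8 of 8 probe sets below 0, and PARP14 at -0.23 with 4 of 4 below 0 and a lowest of -1.03. On the higher side SAMD9L, an inhibitor of translation and growth, was at 6.62 and 7.12 (0.50, 4 of 4 probe sets above 0). BST2 was 0.49 higher (SD 0.07 over 3 probe sets), USP18 0.45 and IFIT5 0.42 (-0.22 on its other probe set). On the brightest probe set ISG15, MX1, IFIH1, IRF1 and IRF9 differed by -0.07 to 0.00. All 3 IRF1 probe sets above the minimum were below 0, with a mean of -0.26. For IRF9 the mean over 4 probe sets was -0.16 (SD 0.33), with a lowest of -0.66. Among the 19 genes with several probe sets, 11 had all of them on 1 side of 0, 8 below and 3 above, again without a share over all genes. On the brightest probe set B-cell markers were lower in 5 of 5 cases in Z138 (-1.08 to -0.03), where 51.9% of all genes were above 0. As the mean over its 3 probe sets CD79B was at 0.11 (SD 0.33). The summed linear signal of the markers was 6048 on the control and 5195 with CC-292. ACTB was 1.12 and 1.11 brighter at its 3′ than at its 5′ end. For GAPDH that gap was -0.28 and -0.24. The part of the markers in the result was not tested.

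The responses of the 2 lines can be set side by side because they use different control arrays. Above 0 in REC-1 and below 0 in Z138 were 17 of the 35 genes, where 21.6% of all measured genes were. In both lines 11 were above 0 and 3 below, and 4 were lower in REC-1 and higher in Z138. Opposite signs at least 1 apart were found for 5 genes (3.82% of all genes). The 17 and these 5 include IFIT3 and IFI6, which reached the minimum only in REC-1. Both are thus measured only through the line in which they rose. The REC-1 difference exceeded the Z138 difference for 25 of 35 genes, against 43.1% of all measured genes. Over the 35 genes the differences of the 2 lines had a Pearson r of -0.48 (Spearman rho -0.36), and -0.39 without IFIT3. Over all 10823 measured genes they were -0.04 and -0.05. Genes are not independent replicates, the 4 arrays were processed as 1 table, and no test of these values was made.

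**Figure D3:**
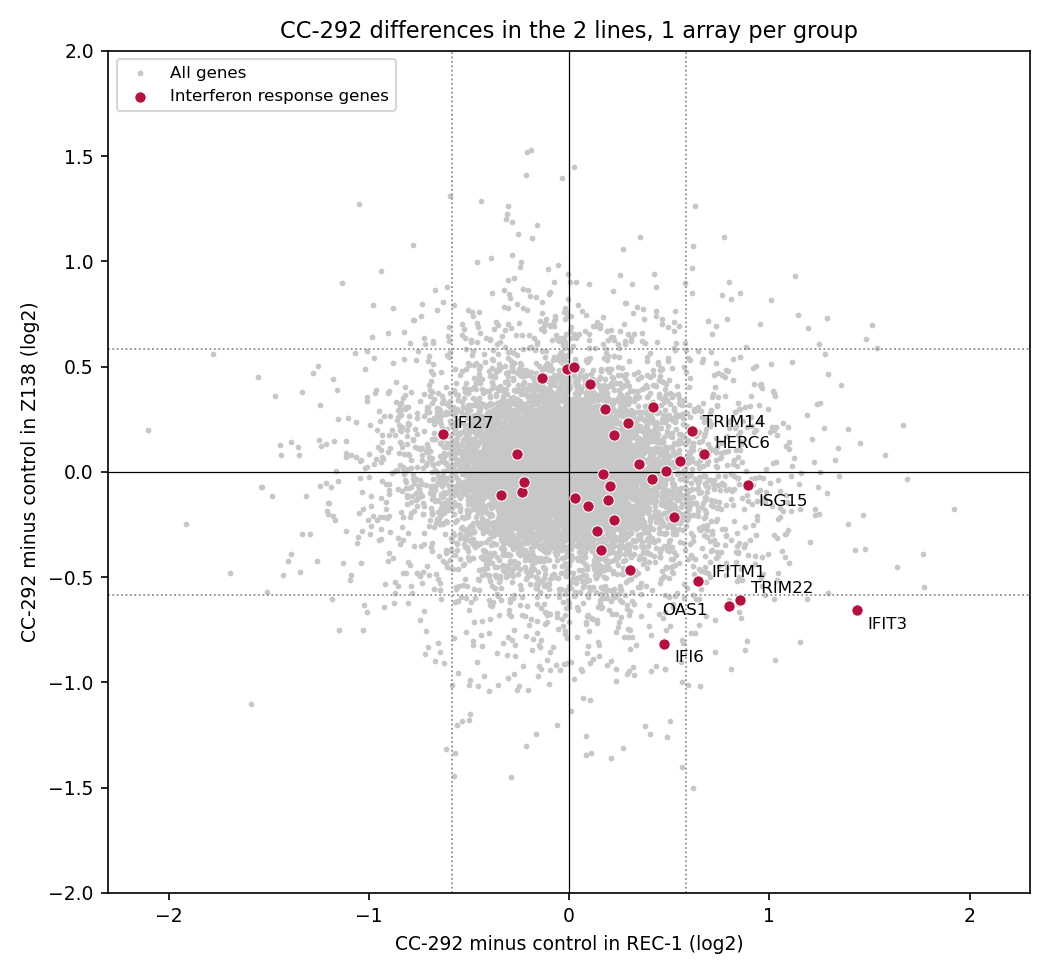
CC-292 minus control (log2) in REC-1 on the x axis and in Z138 on the y axis for all 10823 measured genes (grey) and the 35 measured interferon genes (red); dotted lines mark 1.5-fold and the named genes pass it in at least 1 line. IFIT3, TRIM22 and OAS1 lie beyond 1.5-fold in both lines with opposite signs. IFIT3 reached the minimum only on the REC-1 CC-292 array.

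The average effect of CC-292 over both lines was tested with limma, with the line as a block and adjustment over all 10823 genes. No gene passed an adjusted p of 0.05 (0% called; 472 genes had an unadjusted p under 0.05), and of the 35 interferon genes 0 had an unadjusted p under 0.05. The average was 0.40 (SE 0.18, limma adjusted p = 1.0) for TRIM14 and 0.36 (SE 0.16) for PARP9. On its brightest probe set PARP9 was higher by 0.42 in REC-1 and by 0.31 in Z138. In Z138 its other probe sets were lower with CC-292, and the mean over 3 was -0.04. The residual of this fit is the unlike response of the 2 lines, so genes that moved in opposite directions have a large SE, such as IFIT3 (0.39, SE 0.47).

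A last comparison asked how the lines differ untreated; it uses the same control arrays as the CC-292 comparisons, so the values are not independent of them. The interferon genes lay on both sides, as did all measured genes. Of 35 genes 19 were higher in the REC-1 control (51.1% of all genes), with a median of 0.40 against 0.02. At least 1.5-fold higher in REC-1 were 13 (22.2% of all genes) and in Z138 8 (21.7% of all genes). At least 2-fold they were 6 and 5, where 11.9% and 12.4% of all genes were. Both REC-1 counts include IFI35, HERC6 and PLSCR1, which reached the minimum only in REC-1, HERC6 not on the control. The 1.5-fold count in Z138 includes USP18, which reached it only in Z138. Each is thus measured only through the line where it was higher. 

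Both treatments together allow a test of the line difference, with treatment as a block in the same limma fit (REC-1 minus Z138). Of the 35 genes 24 passed an adjusted p of 0.05, where 44.7% of all genes did. Higher in REC-1 were 15 (21.6% of all genes) and higher in Z138 9 (23.1% of all genes). These counts include 5 genes that reached the minimum only in the line where they were higher, IFI6, IFI35, HERC6 and PLSCR1 in REC-1 and USP18 in Z138. Such a gene had to differ to be counted, so its values are given below without a test. Nothing in the labels says that arrays of a line are separate cultures of equal standing. The p-values therefore measure the spread left after the additive effects, with 1 residual degree of freedom and 4.5 borrowed from all genes.

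The genes of the REC-1 side include PARP9, at 6.79 and 7.21 in REC-1 (control, CC-292) and 4.80 and 5.11 in Z138. Its average difference was 2.05 (SE 0.16, limma adjusted p = 0.0005). In the controls its brightest probe set gave 1.99, but the other probe sets gave less, with a mean over 3 of 0.90 and a lowest of 0.27, so the size is uncertain. DTX3L, its partner and neighbour on the chromosome, was 1.05 higher (SE 0.16, limma adjusted p = 0.0049), with 3 probe sets within 0.88 and 0.95 in the controls. PARP14 was 0.67 higher (SE 0.18, limma adjusted p = 0.0306).

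IFI16, a nuclear DNA sensor, differed between the lines on all of its probe sets. Its values were 11.41 and 11.44 in REC-1 and 9.71 and 9.59 in Z138, with an average of 1.77 (SE 0.16, limma adjusted p = 0.0008) and 1.36 to 1.70 over 3 probe sets in the controls. PLSCR1, a phospholipid scramblase induced by interferon, was at 5.23 and 5.01 in REC-1 and at 3.62 and 3.57 in Z138, under the minimum there. In the controls the difference was 0.83 as the mean of all its probe sets against 1.62 on the brightest. TRIM22 was 1.60 higher (SE 0.35, limma adjusted p = 0.015), and 6 of 6 probe sets were above 0 in the controls, between 0.87 and 2.21.

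Further genes higher in REC-1 were OAS1 at 1.44 (SE 0.34, limma adjusted p = 0.0204) and IRF9 at 1.29 (SE 0.19, limma adjusted p = 0.0037). For IRF9 the brightest probe set gave 1.05 in the controls and the mean of 4 gave 0.34, with 1 of 4 below 0. SP110, IFITM1, XAF1 and TRIM21 also passed, with averages from 0.71 to 1.22. HERC6 and IFI6 were counted through REC-1 alone, with Z138 values of 3.45 and 3.54 and of 4.50 and 3.68, and IFI6 did not pass with quantile normalization or cyclic loess. IFI35, which binds the interferon-induced protein NMI, was at 5.51 and 5.25 against 4.26 and 4.34, under the minimum in Z138. On the brightest probe set both REC-1 arrays lay above both Z138 arrays for each of these genes. They were listed for this line difference, so the separation is no further result.

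On the Z138 side stood IFIH1, at 5.32 and 5.73 in REC-1 and 7.32 and 7.28 in Z138. Its average was -1.78 (SE 0.18, limma adjusted p = 0.0012), and its second probe set, under the minimum on all arrays, went the same way in the controls, with a mean over both of -1.19. TRIM14 was at 5.85 and 6.47 against 7.27 and 7.46 (average -1.21, SE 0.18, limma adjusted p = 0.004). In the controls its brightest probe set gave -1.42, the one of median difference -0.57, and the mean over all of them was -0.69. ISG15 averaged -1.07 (SE 0.26, limma adjusted p = 0.0205); with CC-292 the REC-1 value of 7.08 came nearer to the Z138 values but did not reach them.

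ISG20 was at 6.76 and 7.28 against 8.18 and 7.96 (average -1.05, SE 0.22, limma adjusted p = 0.0134). MX1, a dynamin-like GTPase against influenza and other viruses, was at 6.35 and 6.56 against 7.55 and 7.48 (average -1.06, SE 0.17, limma adjusted p = 0.0048). Its neighbour MX2 differed less, by -0.28 (SE 0.16, limma adjusted p = 0.205). The adjacent pair SAMD9 and SAMD9L was higher in Z138, with averages of -0.88 (SE 0.16, limma adjusted p = 0.0073) and -0.99 (SE 0.18, limma adjusted p = 0.0088). IFIT5 (-0.62) passed as well, but not when the minimum was left out. USP18 was at 3.71 and 3.57 in REC-1, under the minimum, and at 4.30 and 4.75 in Z138, and it did not pass with an intensity trend in the fit.

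The 11 measured genes that did not pass were SP100, IFIT3, EPSTI1, BST2, IRF7, IFI27, EIF2AK2, IFI44, MX2, TRIM5 and IRF1. Their averages ran from -0.37 (IRF1, SE 0.16, limma adjusted p = 0.117) to 0.54 (SP100, SE 0.19, limma adjusted p = 0.0687). A p above the threshold does not show that their levels were alike.

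**Figure D4:**
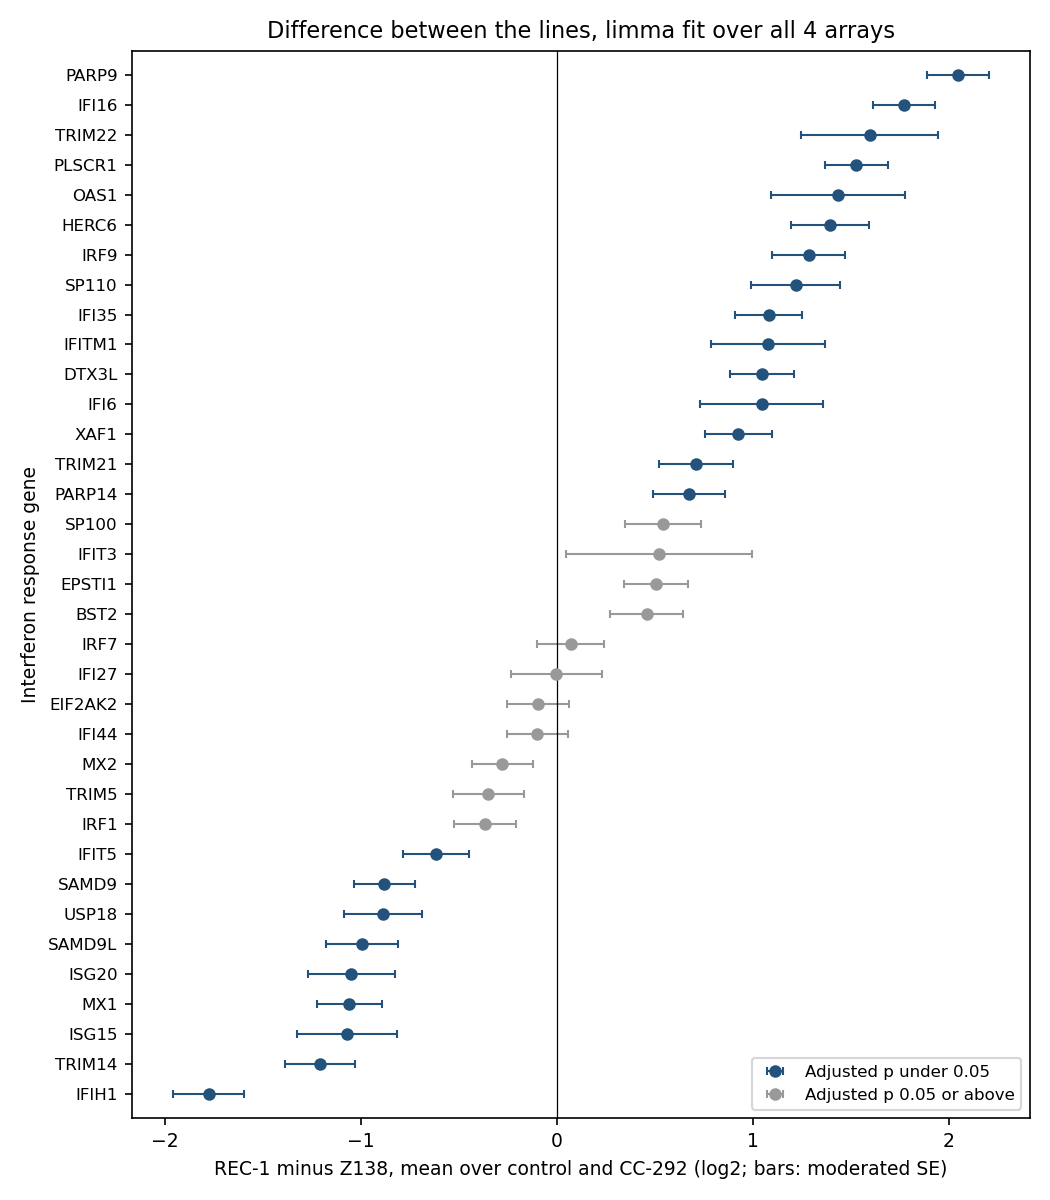
Average difference REC-1 minus Z138 over control and CC-292 arrays (log2, x axis) for the 35 measured interferon genes (y axis), with bars for the moderated SE of the limma fit; blue points have an adjusted p under 0.05. The blue points run from IFIH1 at -1.78 to PARP9 at 2.05. Of these, 15 lie on the REC-1 side (21.6% of all genes did) and 9 on the Z138 side (23.1%). IFI6, IFI35, HERC6, PLSCR1 and USP18 are among them but reached the minimum only in the line where they were higher. Their colour is therefore not to be read as a test.

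The pathway upstream of these genes was described with a list of 42 genes. The ligand genes IFNA2, IFNB1, IFNE, IFNK, IFNL1 and IFNG had a probe set each and stayed under the minimum on all arrays, with a highest value of 3.78 (IFNL1), and IFNA1 had none of its own. The receptor genes IFNAR1 and IFNAR2 were measured in both lines, at 7.55 to 7.84 and 8.90 to 9.57, and differed by at most 0.22 with CC-292. Of 29 measured pathway genes 16 were above 0 in REC-1 (median 0.05) and 9 in Z138 (median -0.06). Over all measured genes the shares above 0 were 42.1% and 51.9%. Only JAK2 in REC-1 and PTPN6, a phosphatase that restrains cytokine and antigen receptors, in Z138 passed 1.5-fold. That far lower were 4.73% of all genes in REC-1 and 2.52% in Z138, and that far higher 4.32% and 2.18%. JAK2 went from 5.84 to 5.11 (-0.73, but -0.13 as the mean of 3 probe sets) and PTPN6 from 8.30 to 7.30 (-0.99, SD 0.19 over 3 probe sets).

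Between the lines 17 of the 29 pathway genes passed limma, 9 higher in REC-1 and 8 in Z138, where 44.7% of all genes passed, 21.6% and 23.1% by direction. The Z138 count includes SOCS1, CGAS and STING1, which reached the minimum only in Z138, the line where they were higher. Of the receptors, IFNGR1 was at 10.24 in the REC-1 control and 7.14 in the Z138 control (average 3.23, SE 0.16, limma adjusted p = 0.000124). The type III interferon receptor gene IFNLR1 was at 6.18 and 9.33 (average -3.22, SE 0.16, limma adjusted p = 0.000118). SOCS1, an inhibitor of Janus kinases, was at 3.42 and 3.61 in REC-1, under the minimum, and at 7.30 and 6.87 in Z138. It was measured only through Z138. The DNA sensor CGAS was at 4.33 and 7.43, and its adaptor STING1 at 3.92 and 5.51, both higher in Z138 and under the minimum in REC-1. IRF8 and TLR9 were higher in REC-1, at 10.43 against 7.23 and 6.87 against 4.38.

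A further 37 interferon-stimulated genes outside the 48 gave 26 measured genes. In REC-1 with CC-292 18 of these were above 0 (median 0.13) and in Z138 9 (median -0.02). Over all measured genes 42.1% and 51.9% were above 0, with medians of -0.05 and 0.01. UBA7, the activating enzyme of ISG15 conjugation, went from 4.66 to 5.63 in REC-1 (0.97 higher on 1 probe set) and APOBEC3B from 3.85 to 4.50 (0.65, SD 0.18 over 2 probe sets). Both of these APOBEC3B values lie under the minimum, which it reached only in Z138. The chemokine gene CXCL10 went the other way, from 5.44 to 3.96, and the REC-1 control was the only array on which it reached the minimum. At least 1.5-fold higher in REC-1 were 4.32% of all measured genes, and 4.73% were lower. In Z138 no gene of this list passed 1.5-fold, where 2.18% of all genes were higher and 2.52% lower. Between the lines 14 of the 26 passed limma, 5 higher in REC-1 and 9 in Z138, against 44.7% of all genes (21.6% and 23.1%). These counts include APOL6, APOBEC3B and RTP4, which reached the minimum only in Z138, and LY6E, which reached it only in REC-1. Each is thus measured only through the line where it was higher. IFITM2, a close relative of IFITM1, was at 10.58 in the REC-1 control and 4.87 in the Z138 control. Probes of such near-identical relatives can pick up each other's transcripts, which leaves the IFITM1 values uncertain to that extent.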

How the data were processed

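Per the labels' protocols, biotin-labelled cRNA was prepared from 150 ng of total RNA by the Affymetrix protocol. The authors deposited log2 probe-set signals made with RMA in Affymetrix Expression Console 1.1, per the submitters' processing notes; no source used here gives settings, annotation or genome build, and the values themselves were the basis for reading them as log2. Of 49386 probe sets 45259 had 1 symbol, 1327 several and 2800 none in the probe table used. The brightest probe set by mean stood for a gene, and 10823 of 18239 genes reached the table median on at least 1 array. Entrez identifiers of 47 interferon genes matched RefSeq. No column was without a sample. Arrays have no read depth, and their number limits the precision.

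Single-array differences have no test and were counted at 1.5-fold. The additive fit of line and treatment used limma 3.58.1 (lmFit, eBayes, Benjamini-Hochberg over all 10823 genes) in R 4.3.3 and its CC-292 term was checked on simulated data. Tables and plots used matplotlib 3.10.9, numpy 2.4.6 and pandas 2.3.3 in Python 3.11.15. Full values were given for genes at least 1.5-fold different with CC-292 in either line and for the 10 largest differences between controls; further values, such as those of probe-set families, were chosen after they were seen. The interferon genes and all lists were chosen with earlier results of these data known.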

Additional observations from a re-analysis of the deposited data

Results flagged for a closer look

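For 5 of the 35 measured interferon genes, CC-292 minus control had opposite signs in the 2 lines and lay at least 1 apart on the log2 scale, as it did for 3.82% of all 10823 measured genes. REC-1 minus Z138, this gap was 2.09 for IFIT3, 1.46 for TRIM22, 1.44 for OAS1, 1.29 for IFI6 and 1.16 for IFITM1. With 1 array per group the difference between the lines was not tested. TRIM22 and IFITM1 were bright on all 4 arrays and kept their signs on all probe sets above the minimum. IFIT3 and IFI6 rested on 1 dim probe set each and reached the minimum only in REC-1, IFIT3 only on its CC-292 array. Both are thus measured only through the line in which they rose, so their part of the count is no independent result. For OAS1, 1 of the 3 probe sets was above 0 in Z138.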

How the results depend on the processing

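Counts here are of interferon genes. Without the minimum the median was 0.17 in REC-1 and 0.28 between controls, with 2 genes 1.5-fold lower in REC-1. With the 70th percentile as minimum, 4 were 1.5-fold higher and 0 lower in REC-1; in Z138 7 lay above 0 and 1 was 1.5-fold lower; between controls the median was 0.28, 11 lay above 0 and 7 were 1.5-fold higher. Fewer genes are tested there. At 2-fold, 1 gene was higher and 0 lower in REC-1, 0 lower in Z138, and 6 higher and 5 lower between controls. Averaging a gene's probe sets left 0 lower in REC-1, with 26 above 0, 5 at least 1.5-fold higher and OAS1 at 0.36. Taking the probe set of median difference also left 0 lower in REC-1, with 25 above 0, 6 at least 1.5-fold higher and OAS1 at 0.26. It gave a median of 0.22 between controls and reversed TRIM14 in REC-1 (-0.12). The cause was not tested. The median in REC-1 was above 0 under every setting run. limma called 17 to 26 interferon genes between lines, of which 16 to 24 were shared with the 24 reported. HERC6, IFI35, IFI6, IFIT5, OAS1, PLSCR1, USP18 and XAF1 do not reach the 70th percentile and were not tested there. For CC-292 limma called 0 genes under every setting run, with 13 to 880 genes at an unadjusted p under 0.05. The fit blocks on the line or treatment; without that block limma called 24 interferon genes between lines and 0 for CC-292. The labels carry no replicate numbers to pair by. The main limits are 1 array per group and dim signals near background.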
